A study of Mus musculus with 45 samples.

Results

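RNA was sequenced from mouse forelimb buds kept for 24 h in organ culture with 50 µM bisphenol A or with its solvent. Bisphenol A is a monomer of polycarbonate plastics and epoxy resins that binds estrogen receptors weakly. Of the 45 libraries of the series, 10 form the comparison, 5 of vehicle (dimethyl sulfoxide) and 5 of 50 µM, and they were chosen by their sample titles alone. All carry the same background: forelimbs of CD1 mice, an outbred stock, taken on gestation day 13, pooled in culture bottles with limbs of both sexes together, and gassed with 5% CO2 and 50% O2. No transgene, Cre or deletion is named in any group. The explant holds cartilage, muscle, tendon, vessels, skin and blood cells together and has no circulation, so that a bulk library cannot tell fewer cells of a type from less RNA per cell. The series is titled for endochondral ossification, the replacement of a cartilage model by bone.

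The 10 libraries held between 17939741 and 24770312 counts in genes. Cultures of 10 µM bisphenol A at 24 h, and of vehicle and 50 µM at 3 and 48 h, 5 libraries each, were used only to place the 24 h values. Separate litters, bottles or days are not stated for the 5 libraries within a group. The p-values therefore rest on library-to-library spread, some of which may be technical. The labels disagree on time in places: the treatment text of every sample names 3 hours, and the 50 µM libraries titled 3 h carry a field of 24 hours. The titles were followed in both cases.

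On gestation day 13 the limb skeleton is a set of cartilage rods. Chondrocytes that express Sox9 make a matrix of Col2a1 and Acan, pass through a prehypertrophic stage marked by the signal Ihh and become hypertrophic, when they make Col10a1 and later the mineral-binding protein Ibsp. Around the rods, muscle fibres assemble sarcomeres and tendon cells form their attachments. Cells meet stress with several programmes. The integrated stress response slows translation and, through the factor ATF4, raises genes of amino acid uptake and synthesis, and the unfolded protein response raises chaperones of the endoplasmic reticulum (ER).

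After 24 h with 50 µM, Col10a1 and Ibsp and many genes of muscle fibres and some of tendon and the tubulins were lower than in vehicle, and some genes of the integrated stress response, of ER protein folding and of the bone morphogenetic protein (BMP) pathway were higher. The words called, rose and fell are kept for genes where edgeR's quasi-likelihood test gave a Benjamini-Hochberg adjusted p below 0.05. They compare 50 µM with vehicle at 24 h, so a gene that fell may still have been higher than at 3 h. Of 16841 genes tested, 585 were called (3.47%), 231 higher (1.37%) and 354 lower (2.1%). The median absolute log2 fold change was 0.42 among the called genes that were higher and 0.62 among those lower, and 11 and 75 of them reached 2-fold. Of these called genes 222 and 342 code for proteins. The vehicle and treated libraries did not overlap in 189 of the 231 and 275 of the 354, against 389 (2.31%) and 493 (2.93%) of all genes tested. The authors' deposited table lists 920 genes at an adjusted p below 0.05, 371 higher and 549 lower. The submitters' processing notes name DESeq2, a different test, which gave 407 higher and 587 lower when run here. The 585 calls depended on the libraries: 351, 366 and 362 were made without vehicle replicates 3, 4 and 5, and 351, 345 and 365 without 50 µM replicates 2, 4 and 5. With the replicate number added to the fit, 1180 genes were called, so a gene not called here may be called there.

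Some libraries stood apart. Replicates 1 and 2 of the 50 µM group held less of the Y-linked transcript Ddx3y, at 21.6 and 30.1 CPM (counts per 1000000 counts of the library, after scaling between libraries), than the other 8 libraries, which lay between 55.6 and 85.3 CPM. The same pair held the most of the X-linked Xist, 1010.3 and 1464 CPM against 332 to 872 CPM in the others. Epidermal transcripts took 0.0102% to 0.190% of all counts over the 5 vehicle libraries and 0.0330% to 0.107% over the 5 treated ones. Without the pair of treated libraries low in Y-linked transcripts, an alternative added after seeing the data that leaves 3 libraries against 5, edgeR called 105 genes higher and 139 lower. Of the 103 called genes named in what follows, 66 were called there too and 37 were not.

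**Figure D1:**
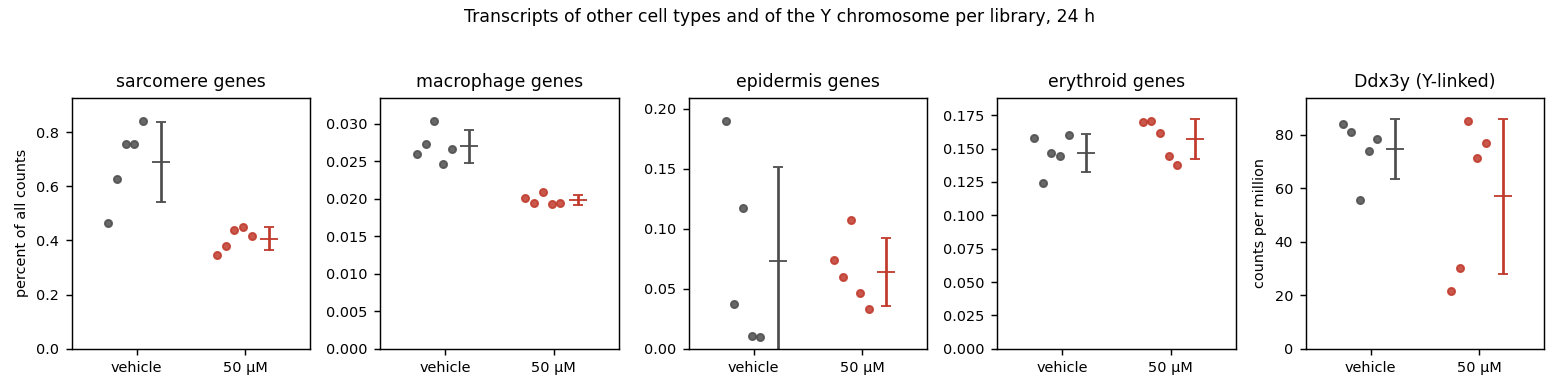
Share of all counts (percent) taken by sarcomere, macrophage, epidermis and erythroid gene lists, and level of the Y-linked gene Ddx3y in CPM, in each of 5 vehicle and 5 50 µM libraries at 24 h; points are libraries in replicate order, bars are mean ± SD, and the bar for epidermis in vehicle runs below 0 and is clipped there. The sarcomere and macrophage shares of the treated libraries lie below every vehicle library, the epidermal shares of vehicle spread over 0.0102% to 0.190%, and the treated replicates 1 and 2 lie apart in Ddx3y.

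Genes of mineralising cartilage had some of the largest falls. Col10a1, the collagen of hypertrophic cartilage, stood at 55.9, 97.2, 45.7, 32.2 and 29.7 CPM in the vehicle libraries and at 13.0, 22.4, 17.6, 12.5 and 11.2 CPM with 50 µM. Ibsp, the mineral-binding sialoprotein of hypertrophic cartilage and bone, stood at 220.4, 249, 198, 137 and 119.6 CPM in vehicle and at 54.5, 58.8, 81.3, 47.4 and 36.2 CPM with 50 µM. For both genes the 5 treated libraries lay below all 5 vehicle libraries. Col10a1 fell by 1.76 ± 0.29 (log2 fold change ± SE, edgeR adjusted p = 0.00375), and Ibsp fell by 1.73 ± 0.21 (edgeR adjusted p = 0.000551). Ifitm5, a membrane protein of mineralising osteoblasts, fell from 6.41 ± 1.45 to 3.26 ± 0.673 CPM (mean ± SD, n = 5, edgeR adjusted p = 0.0141). Matn3, a matrix protein of cartilage, fell from 79.2 ± 17.2 to 52.6 ± 6.89 CPM with groups that overlapped. Its call was lost without vehicle replicate 4 or 50 µM replicate 4 or 5, with an edgeR adjusted p of at most 0.0702. Ifitm5 and Matn3 were chosen after their values were seen.

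Ihh, the signal of prehypertrophic chondrocytes, was called in the other direction. Its vehicle libraries read 48.6, 45.4, 35.5, 47.3 and 40.0 CPM, and its treated libraries 71.7, 60.6, 43.6, 64.4 and 58.5 CPM. A single treated library, replicate 3, lay inside the vehicle range. The rise of 0.46 ± 0.12 on the log2 scale was close to the threshold, with an edgeR adjusted p of 0.0477, and it was lost in 8 of the 10 fits that left out 1 library, those without vehicle replicate 2, 3, 4 or 5 or 50 µM replicate 1, 2, 4 or 5 (highest edgeR adjusted p 0.126) and in the fit without the pair low in Y-linked transcripts. Pthlh and Pth1r, the ligand and receptor that hold chondrocytes back from hypertrophy, were not called, with log2 differences of -0.32 ± 0.20 and 0.11 ± 0.09.

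The main genes of earlier cartilage, Col2a1, Acan and the Sox factors, were not called. Col2a1, the main collagen of cartilage, stood at 6379 ± 433 CPM in vehicle and 6729.8 ± 399.9 CPM with 50 µM, and Acan, the main cartilage proteoglycan, at 444 ± 50.0 and 471 ± 34.2 CPM. Sox9, Sox5 and Sox6, the transcription factors of the cartilage fate, gave log2 differences of 0.23 ± 0.07, 0.13 ± 0.09 and 0.29 ± 0.11. The Sox9 value missed the threshold with edgeR (adjusted p = 0.0876) and passed it with DESeq2, and Sox9 and Sox6 passed it with the epidermal covariate. In the cartilage matrix list 2 of 21 genes tested fell and none rose, with a median log2 difference of 0.02, where the median of all genes was -0.00090. That count was 4 without vehicle replicate 1, 1 without vehicle replicate 2 or 3 or 50 µM replicate 2 or 3 and 0 without vehicle replicate 4 or 50 µM replicate 4 or 5. The list of hypertrophic cartilage and mineralisation held 1 gene of 21 that rose and 2 that fell, with a median of -0.21, and the lower count was 4 without vehicle replicate 1. The higher count lay between 0 and 2 over the fits without 1 library. Without the pair low in Y-linked transcripts 0 rose and 2 fell.

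The bone list had 2 of 23 members that fell, Ibsp and Ifitm5, and none that rose, with a median of -0.14. The lower count was 5 with DESeq2, 4 with the epidermal covariate and 1 without the pair low in Y-linked transcripts, and 1 member rose with DESeq2 and with that covariate. Runx2 and Sp7, the transcription factors of the osteoblast, gave -0.19 ± 0.10 and -0.16 ± 0.10 on the log2 scale and were not called. Col1a1, the chief collagen of bone matrix, stood at 3016 ± 124 CPM in vehicle and 2576 ± 224 CPM with 50 µM (edgeR adjusted p = 0.0771). Alpl, the phosphatase of mineralising cells, lay at 30.6 to 41.5 CPM in vehicle and 25.1 to 29.9 CPM with 50 µM, ranges that did not overlap, with an edgeR adjusted p of 0.0502. Spp1, a phosphoprotein of bone, spread over 7.17 to 25.8 CPM in vehicle and was not called. Mmp13, a collagenase of late hypertrophic cartilage, was near its detection limit and was not called. It read 1.83, 0.168, 0, 0.0406 and 0.0451 CPM in vehicle and 0.717, 0.541, 0.0944, 1.15 and 0.772 CPM with 50 µM. Its log2 difference was 0.67 ± 0.93, and 0.35 to 3.35 over the fits without 1 library (edgeR adjusted p 0.0341 to 0.931).

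The gene with the smallest p of all 16841 was Fgfr3 (chromosome 5, 33721674 to 33737068 in mm10), a fibroblast growth factor (FGF) receptor of growth cartilage that restrains chondrocyte proliferation. Vehicle libraries read 205, 205, 178, 185 and 191 CPM, and treated libraries 385, 376, 363, 338 and 318 CPM. Every treated library lay above every vehicle library. The rise was 1.85-fold (log2 0.89 ± 0.07, edgeR adjusted p = 2.4e-05), and it kept its call in all 10 fits without 1 library. Fgfr2, a second receptor of the family, rose from 182 ± 12.2 to 234 ± 5.19 CPM (edgeR adjusted p = 0.00247).

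Several genes that FGF signals are known to induce were lower. Spry4 and Spry1, feedback inhibitors of the pathway, fell by 0.56 ± 0.09 and 0.41 ± 0.09 on the log2 scale, and Etv5, a transcription factor induced by FGF, fell by 0.47 ± 0.06 (edgeR adjusted p = 0.00237, 0.0164 and 0.000692). In Etv5 the vehicle libraries spanned 105 to 118 CPM and the treated ones 74.8 to 85.9 CPM. Fgf9, a ligand of the family, fell from 20.2 ± 1.97 to 14.5 ± 1.26 CPM. In the FGF list as a whole 2 of 22 genes rose and 4 fell, 10 log2 differences were positive, and the median was -0.05. Spry1 lost its call without vehicle replicate 3 or 50 µM replicate 5, and Fgf9 without vehicle replicate 5 (highest edgeR adjusted p 0.0564 and 0.0540). Spry1, Spry4, Etv5 and Fgf9 were named after their values were seen, as was Gdf5, a BMP family ligand of the joint interzone, which rose from 56.0 ± 8.77 to 80.8 ± 9.16 CPM (edgeR adjusted p = 0.0153). In the joint list 1 of 14 rose, Gdf5, and 1 fell, Osr2, with a median of -0.05, and neither was called without the pair low in Y-linked transcripts. Osr2, a transcription factor of joints, fell 1.33-fold.

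**Figure D2:**
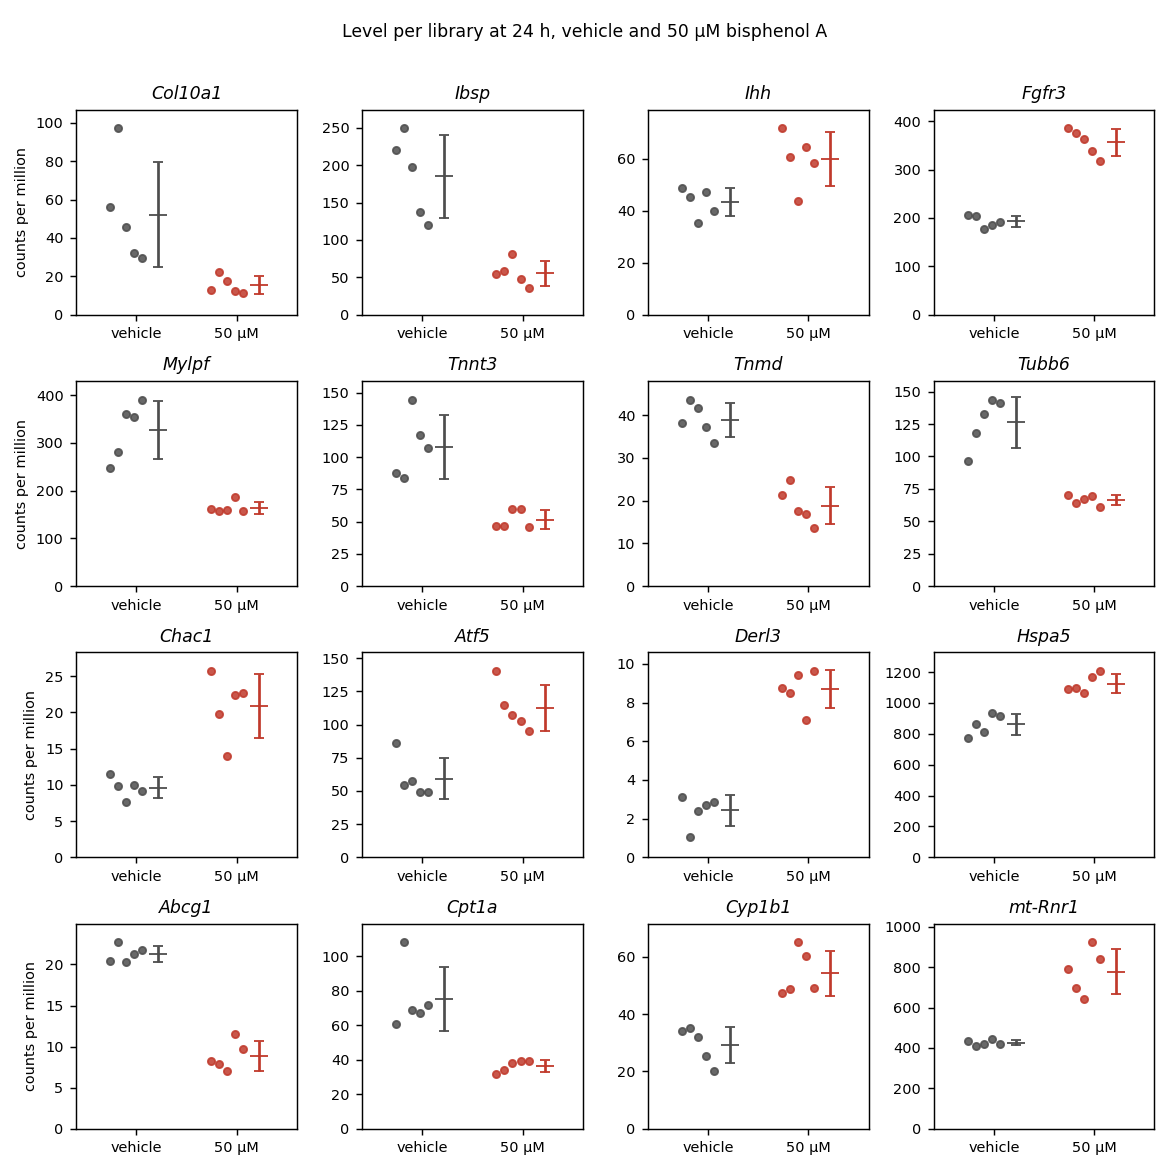
CPM of 16 named genes in each of 5 vehicle and 5 50 µM libraries at 24 h; points are libraries in replicate order, bars are mean ± SD, and every axis starts at 0. The groups overlap in the Ihh panel, where treated replicate 3 lies inside the vehicle range, and are separate in the other 15.

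Genes of the muscle fibre fell in the largest number of any list. Of 36 sarcomere and contractile genes tested, 27 fell and none rose, and all 36 log2 differences were negative, with a median of -0.80. Leaving out 1 library gave between 22 and 33, and leaving out the pair low in Y-linked transcripts gave 14. The list took 0.466%, 0.628%, 0.757%, 0.758% and 0.842% of all counts in the vehicle libraries and 0.347%, 0.378%, 0.439%, 0.451% and 0.415% in the treated ones. No treated library reached the lowest vehicle library, replicate 1, which was also the library with the largest epidermal share.

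Tnnt3, a troponin of fast muscle (chromosome 7, 142498836 to 142516009), read 87.8, 83.5, 145, 117 and 107 CPM in vehicle and 46.2, 46.6, 59.4, 60.1 and 45.7 CPM with 50 µM. Mylpf, a light chain of fast myosin, read 247, 281, 360.3, 355 and 390.4 CPM in vehicle and 161, 158, 159, 187 and 158 CPM with 50 µM. The groups were separate in both genes, and the treated libraries spanned a narrower range. Tnnt3 fell 2.09-fold and Mylpf 1.99-fold (edgeR adjusted p = 0.000708 and 0.000240). Tnnc1 and Tnni2, further troponins, fell 1.77-fold and 2.01-fold. Csrp3, a protein of the Z disc, fell 3.26-fold from 4.92 ± 1.01 to 1.51 ± 0.155 CPM (edgeR adjusted p = 0.000551).

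In the list of excitation-contraction coupling, the machinery that links the nerve signal to the sarcomere, 10 of 22 genes fell and none rose, with a median of -0.50. Casq1, the calcium store protein of fast fibres, fell 2.98-fold from 6.22 ± 0.744 to 2.09 ± 0.520 CPM (edgeR adjusted p = 0.000692). Casq2, its form in slow and heart muscle, fell 1.61-fold, Trdn, which anchors it, 2.13-fold, and Cacnb1, a subunit of the calcium channel, 1.41-fold. The count of 10 was 6 without 50 µM replicate 2 and 5 without vehicle replicate 3, 4 or 5, and 2 without the pair low in Y-linked transcripts. It was 12 with DESeq2 and 14 with the replicate number in the fit.

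The factors that start the muscle programme were not called. Myod1 stood at 119 ± 25.6 CPM in vehicle and 115 ± 16.8 CPM with 50 µM, and Myog at 192 ± 22.9 and 174 ± 14.8 CPM (edgeR adjusted p = 0.928 and 0.456). In the list of myogenic regulators and synapse genes 6 of 23 fell and none rose, with a median of -0.21. Fgf6, a growth factor of the muscle lineage, read 4.93, 3.86, 8.17, 6.09 and 8.21 CPM in vehicle and 1.99, 1.33, 1.98, 1.86 and 1.65 CPM with 50 µM. That fall of 3.55-fold, without overlap, was the largest of any gene that the naming rule picked (edgeR adjusted p = 0.000708). Rapsn, which clusters acetylcholine receptors at the synapse, fell 1.47-fold. Msc, a repressor expressed in muscle progenitors, fell 1.47-fold and lost its call without vehicle replicate 5 (edgeR adjusted p = 0.0508). Myf6, a late myogenic factor chosen after its value was seen, fell by 1.81 ± 0.47 on the log2 scale from 1.12 ± 0.353 CPM. It was called at an edgeR adjusted p of 0.0479 and lost that call in 9 of 10 fits without 1 library, those without vehicle replicate 1, 2, 3, 4 or 5 or 50 µM replicate 1, 2, 4 or 5 (highest edgeR adjusted p 0.126). The count of 6 was 3 without vehicle replicate 2, 3 or 4 or 50 µM replicate 1, 2 or 5 and 2 without vehicle replicate 5, and 2 without the pair low in Y-linked transcripts.

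Of 25 tendon and connective tissue genes 7 fell and none rose, with a median of -0.22. Tnmd, a membrane protein of mature tendon cells (chromosome X, 133850980 to 133865577), read 38.3, 43.6, 41.7, 37.4 and 33.4 CPM in vehicle and 21.2, 24.9, 17.6, 16.9 and 13.6 CPM with 50 µM. It fell 2.06-fold with no overlap (edgeR adjusted p = 0.000708). Bgn and Fmod, small proteoglycans that bind collagen, fell 1.29-fold and 1.31-fold, and Fmod lost its call without vehicle replicate 5 or 50 µM replicate 4 or 5 (highest edgeR adjusted p 0.0616). Scx, the transcription factor of tendon progenitors, was not called, at a log2 difference of -0.13 ± 0.15. The count of 7 was 4 without vehicle replicate 5 or 50 µM replicate 5, and 2 without the pair low in Y-linked transcripts. It was 11 with DESeq2 and 13 with the replicate number in the fit.

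Among 11 alpha and beta tubulins, the subunits of microtubules, 6 fell and none rose, with a median of -0.29, and leaving out 1 library gave between 4 and 7. Tubb6 read 96.1, 118, 133, 144 and 142 CPM in vehicle and 70.3, 63.7, 67.0, 69.3 and 60.8 CPM with 50 µM, a fall of 1.91-fold without overlap (edgeR adjusted p = 0.000208). Tubb2b, Tubb2a and Tuba4a fell 1.58-fold, 1.54-fold and 1.82-fold. Tuba1a fell 1.27-fold and lost its call without vehicle replicate 4 or 5 or 50 µM replicate 2 (highest edgeR adjusted p 0.0601). Tubulin genes are near-identical in sequence, so the split of reads among them is uncertain. Outside that list, Vim, the intermediate filament of mesenchyme, spanned 948 to 1109 CPM in vehicle and 656 to 727 CPM with 50 µM, a fall of 1.45-fold (edgeR adjusted p = 0.000225). Acta2, an actin of smooth muscle and of immature muscle fibres, fell 2.12-fold from 286 ± 70.7 to 135 ± 20.3 CPM (edgeR adjusted p = 0.00129), the single call among 11 pericyte and smooth muscle genes. Vim and Acta2 were chosen after their values were seen.

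Of 24 genes of the integrated stress response 9 rose and none fell, with a median of 0.33. The count was 5 without vehicle replicate 3 and 3 without the pair of treated libraries low in Y-linked transcripts. Chac1 (chromosome 2, 119351229 to 119354381), which breaks down glutathione, read 11.5, 9.89, 7.58, 9.99 and 9.16 CPM in vehicle and 25.7, 19.8, 13.9, 22.4 and 22.8 CPM with 50 µM. It rose 2.17-fold (edgeR adjusted p = 0.00108), and treated replicate 3 was the lowest of its group, as it was in Atf4, Ddit3 and Trib3. Atf5, a transcription factor whose translation depends on the response, read 86.3, 54.3, 57.3, 49.3 and 49.0 CPM in vehicle and 140.3, 115, 107, 103 and 95.5 CPM with 50 µM, a rise of 1.90-fold (edgeR adjusted p = 0.00261). Ddit3, which encodes the stress factor CHOP, rose 1.38-fold, Jdp2, another basic leucine zipper factor, 1.55-fold, and Trib3, a pseudokinase induced by ATF4, 1.88-fold. Atf4 itself rose from 222 ± 12.2 to 289 ± 36.0 CPM, and lost its call without vehicle replicate 3 or 50 µM replicate 4 or 5 (highest edgeR adjusted p 0.0562).

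Of 25 amino acid transporters 5 rose and none fell, with a median of 0.16, and leaving out 1 library gave between 5 and 6. Slc7a5, which carries large neutral amino acids, rose 1.60-fold from 85.4 ± 7.83 to 136 ± 17.3 CPM (edgeR adjusted p = 0.000842), and its partner chain Slc3a2 rose 1.39-fold. Slc7a1 and Slc7a3, carriers of cationic amino acids, rose 1.54-fold and 1.77-fold. Of 28 enzymes of amino acid and one-carbon synthesis 7 rose and none fell, with a median of 0.15. Asns, which makes asparagine, read 72.0, 81.8, 63.9, 70.0 and 82.5 CPM in vehicle and 109, 104, 94.4, 120.0 and 119 CPM with 50 µM, a rise of 1.48-fold without overlap (edgeR adjusted p = 0.00214). Mthfd2, a mitochondrial one-carbon enzyme, rose 1.52-fold, Oat, which converts ornithine, 1.32-fold, and Pycr1, which makes proline, 1.33-fold. The enzyme count was 4 without vehicle replicate 3 or 4 or 50 µM replicate 2 or 4, and 4 without the pair low in Y-linked transcripts. It was 9 with DESeq2 and with the replicate number in the fit.

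The promoters of these genes were searched for letters that ATF4 is known to bind with C/EBP partners. The window was the 250 bases before each start site in RefSeq (build GRCm38.p6, the assembly also called mm10), read on both strands for TGATGNAAN, the C/EBP-ATF element. Of the 21 called genes of the stress, transporter and synthesis lists 16 have an entry, and 5 of these hold the letters (Chac1, Vldlr, Jdp2, Asns and Pycr1). Among the 56 other members 47 have an entry and 6 hold them. Over all 11868 tested genes with an entry the share was 2.41%, and over all 32851 promoters held by RefSeq's list it was 3.44%. Chac1 and Asns are shown because they rose and carry the element, which is in capitals. In Chac1 it is read on the opposite strand and begins 194 bases before the start, and in Asns it is on the gene's strand and begins 23 bases before. Neither match lies within 20 bases of another motif searched here. A match describes letters and shows no binding in these limbs. The element and these lists were both chosen from known biology of ATF4. The lists were also made with earlier results of these data known, so the shares are not a test of enrichment.
Chac1 (chr2:119350992-119351241, plus strand): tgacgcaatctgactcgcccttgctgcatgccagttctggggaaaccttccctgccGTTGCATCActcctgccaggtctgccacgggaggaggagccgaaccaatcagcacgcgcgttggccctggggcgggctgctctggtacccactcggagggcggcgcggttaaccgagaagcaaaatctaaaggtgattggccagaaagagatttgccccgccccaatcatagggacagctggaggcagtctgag
Asns (chr6:7693210-7693459, minus strand): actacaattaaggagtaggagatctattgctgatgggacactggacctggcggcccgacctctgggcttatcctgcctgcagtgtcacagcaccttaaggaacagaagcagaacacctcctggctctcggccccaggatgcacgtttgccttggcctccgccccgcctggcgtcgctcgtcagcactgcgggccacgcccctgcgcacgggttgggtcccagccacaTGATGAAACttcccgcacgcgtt

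Of 20 chaperones of the ER 8 rose and none fell, with a median of 0.24. Hspa5, a central chaperone of the ER, read 776, 866, 809.7, 935 and 917 CPM in vehicle and 1092, 1096, 1062, 1167 and 1207 CPM with 50 µM. Calr, a lectin chaperone that binds calcium, read 1004, 1082, 1067, 1094 and 1047 CPM in vehicle and 1429.9, 1388, 1287, 1429.7 and 1588 CPM with 50 µM. In both the treated libraries were all higher, by 1.31-fold for Hspa5 and 1.35-fold for Calr (edgeR adjusted p = 0.00438 and 0.00127). Hyou1 and Pdia4, further folding factors, rose 1.22-fold and 1.28-fold. Sdf2l1, an ER protein that works with Hspa5, rose 1.47-fold and lost its call without 50 µM replicate 2 (edgeR adjusted p = 0.0502). The count of 8 was 5 without vehicle replicate 3 or 50 µM replicate 4 or 5 and 4 without 50 µM replicate 2, and 3 without the pair low in Y-linked transcripts. Its highest value without 1 library was 10, and it was 11 with DESeq2 and 13 with the replicate number in the fit.

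The largest rise of any gene picked by the naming rule was that of Derl3 (chromosome 10, 75893413 to 75895941), which helps to move misfolded proteins out of the ER for disposal. It read 3.10, 1.06, 2.41, 2.72 and 2.84 CPM in vehicle and 8.77, 8.52, 9.44, 7.11 and 9.63 CPM with 50 µM. The groups were far apart, a rise of 3.56-fold (log2 1.83 ± 0.23, edgeR adjusted p = 0.000551). In its list, ER-associated degradation and stress sensors, 3 of 22 rose and none fell, with a median of 0.10.

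The ER stress element, CCAAT followed after 9 bases of any kind by CCACG, is known to bind ATF6 with the factor NF-Y. It was found on either strand of the 250 bases before the start in 19 of 11868 tested genes with an entry (0.16%) and in 0.113% of all promoters. Among the 11 called members of both ER lists 9 have an entry and 4 hold the element (Hspa5, Hsp90b1, Calr and Derl3), and among the 31 others 26 have an entry and 5 hold it (Canx, Pdia6, Dnajc3, Creld2 and Syvn1). Hspa5 and Derl3 are shown, an abundant chaperone and the gene of the largest rise that the naming rule picked, with the element in capitals. It begins 65 bases before the start on the gene's strand in Hspa5 and 156 bases before it on the opposite strand in Derl3. The element and both lists were chosen from known biology of the ER. Both lists were also made with earlier results of these data known, so the shares are not a test of enrichment.
Hspa5 (chr2:34771840-34772089, plus strand): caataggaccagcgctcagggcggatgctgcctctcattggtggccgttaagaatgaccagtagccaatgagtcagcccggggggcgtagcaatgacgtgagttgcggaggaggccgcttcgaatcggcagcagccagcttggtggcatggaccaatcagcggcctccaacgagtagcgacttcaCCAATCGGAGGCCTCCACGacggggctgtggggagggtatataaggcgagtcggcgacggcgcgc
Derl3 (chr10:75893148-75893397, plus strand): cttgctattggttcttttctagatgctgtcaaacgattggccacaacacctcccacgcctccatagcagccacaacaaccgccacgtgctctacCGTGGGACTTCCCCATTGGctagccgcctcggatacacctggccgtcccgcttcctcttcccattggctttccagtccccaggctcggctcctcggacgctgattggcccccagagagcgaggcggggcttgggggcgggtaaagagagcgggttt

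Genes of sterol synthesis were higher in small number. In the post-squalene list 4 of 12 rose and none fell, with a median of 0.19. Dhcr7, the enzyme of a last step to cholesterol, read 68.7, 62.1, 70.0, 71.7 and 65.7 CPM in vehicle and 92.7, 93.3, 80.0, 87.8 and 81.2 CPM with 50 µM, a rise of 1.29-fold without overlap (edgeR adjusted p = 0.00890). Cyp51, the lanosterol demethylase, rose 1.25-fold. Sqle, which makes the epoxide of squalene, rose 1.23-fold and lost its call without vehicle replicate 3 or 5 or 50 µM replicate 4 (highest edgeR adjusted p 0.0625). Hmgcs1, an early enzyme of the mevalonate pathway, and Insig1, which retains the sterol sensor, were not called, at log2 differences of 0.22 ± 0.07 and 0.19 ± 0.07. The post-squalene count was 2 without vehicle replicate 3 or 5 or 50 µM replicate 4, and 1 without the pair low in Y-linked transcripts.

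Of 9 genes of sterol export 2 fell and none rose, 4 log2 differences were positive, and the median was -0.20. Abcg1 (chromosome 17, 31057698 to 31115777), an exporter raised by liver X receptors when they bind sterols, read 20.4, 22.7, 20.3, 21.2 and 21.8 CPM in vehicle and 8.28, 7.83, 6.99, 11.5 and 9.68 CPM with 50 µM. It fell 2.40-fold with no overlap (edgeR adjusted p = 0.000172). Apoe, a lipoprotein component under the same receptors, fell 1.31-fold (edgeR adjusted p = 0.00421), and Abca1, a second exporter, was not called at a log2 difference of -0.44 ± 0.13. Abcg1 and Apoe, the called members, were chosen after their values were seen.

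Of 24 targets of PPAR, the receptors of fatty acids that raise lipid uptake and oxidation, 8 fell and none rose, with a median of -0.16. Cpt1a, the gate for fatty acids into mitochondria, read 60.7, 108, 68.9, 67.0 and 71.8 CPM in vehicle and 31.9, 33.9, 38.2, 39.3 and 39.3 CPM with 50 µM, a fall of 2.06-fold without overlap (edgeR adjusted p = 0.000692). Cd36, a fatty acid carrier, fell 1.91-fold and Lpl, a lipase, 1.51-fold, and in both the groups overlapped. Cd36 lost its call without vehicle replicate 3 or 50 µM replicate 4 or 5, and Lpl without vehicle replicate 2, 4 or 5 or 50 µM replicate 1, 2 or 5 (highest edgeR adjusted p 0.0651 and 0.0927). The count of 8 was 5 without vehicle replicate 5 or 50 µM replicate 1 or 3, 4 without vehicle replicate 2, 3 without vehicle replicate 3 or 4 and 2 without 50 µM replicate 2, 4 or 5, and 1 without the pair low in Y-linked transcripts.

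Of 20 Id genes and feedback genes of BMP signalling, which drives cartilage and bone formation, 8 rose and 1 fell, with a median of 0.19. Id2, an inhibitor of basic helix-loop-helix factors, read 83.9, 76.4, 79.8, 83.9 and 79.6 CPM in vehicle and 113, 107, 102, 121 and 122 CPM with 50 µM, a rise of 1.40-fold without overlap (edgeR adjusted p = 0.000715). Smad9, a signal transducer, rose 1.66-fold and Smad6, an inhibitory one, 1.31-fold. Bambi, a decoy receptor, and Atoh8, a transcription factor, rose 1.32-fold and 1.33-fold. The count of 8 was 5 without vehicle replicate 3, 4 or 5 or 50 µM replicate 2 or 4, and 5 without the pair low in Y-linked transcripts.

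Retinoic acid binds nuclear receptors and patterns the limb, and it raises its own receptor Rarb and the enzyme Cyp26a1 that destroys it. In the retinoic acid list 5 of 18 rose and 1 fell, with a median of 0.16. Rarb read 5.64, 3.91, 5.08, 8.36 and 7.26 CPM in vehicle and 12.4, 9.99, 10.1, 14.7 and 11.2 CPM with 50 µM, and Cyp26a1 2.85, 1.23, 1.54, 1.26 and 1.31 CPM in vehicle and 3.48, 3.200, 2.93, 4.92 and 3.501 CPM with 50 µM. The groups were separate in both. Rarb rose 1.92-fold and Cyp26a1 2.20-fold (edgeR adjusted p = 0.0142 and 0.0330), and the call of Cyp26a1 was lost in 7 of 10 fits, those without vehicle replicate 2, 3, 4 or 5 or 50 µM replicate 2, 4 or 5 (highest edgeR adjusted p 0.102). Aldh1a3, an enzyme that makes retinoic acid, spanned 18.1 to 27.8 CPM in vehicle and 11.4 to 12.2 CPM with 50 µM, a fall of 2.04-fold (edgeR adjusted p = 0.000272), and was chosen after its values were seen. The count of 5 was 3 without vehicle replicate 2 or 4 or 50 µM replicate 5, 2 without vehicle replicate 3 or 5 or 50 µM replicate 2 and 1 without 50 µM replicate 4, and 0 without the pair low in Y-linked transcripts.

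Both Rarb and Cyp26a1 hold the letters GTTCA repeated after 6 bases of any kind, a form of the element that retinoic acid receptors bind, within 250 bases of the start. On either strand it was in 7 of 11868 tested genes with an entry (0.059%) and in 0.067% of all promoters, in 2 of the 3 members of the list that rose and have an entry and in none of the 11 others with one. The repeat was chosen as a known element of these receptors and the list as genes of retinoic acid. That list was also made with earlier results of these data known, so the shares are not a test of enrichment. In capitals below, the repeat begins 52 bases before the start on the gene's strand in Rarb and 32 bases before it on the opposite strand in Cyp26a1.
Rarb (chr14:16575477-16575726, minus strand): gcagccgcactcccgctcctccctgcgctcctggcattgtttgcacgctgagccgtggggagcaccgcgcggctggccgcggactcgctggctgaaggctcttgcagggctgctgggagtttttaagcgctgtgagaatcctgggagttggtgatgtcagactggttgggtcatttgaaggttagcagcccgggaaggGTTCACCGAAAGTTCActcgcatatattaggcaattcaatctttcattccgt
Cyp26a1 (chr19:37697558-37697807, plus strand): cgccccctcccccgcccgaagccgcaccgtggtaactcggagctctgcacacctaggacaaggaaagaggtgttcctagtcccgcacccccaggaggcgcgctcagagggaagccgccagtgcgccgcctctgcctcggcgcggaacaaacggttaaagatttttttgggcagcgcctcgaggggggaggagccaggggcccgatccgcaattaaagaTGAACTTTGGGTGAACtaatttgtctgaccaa

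Transcripts of the estrogen receptors, known binding proteins of bisphenol A, were rare. Esr1 stood at 1.13 ± 0.265 CPM in vehicle and 1.06 ± 0.216 CPM with 50 µM, and Esr2 at 0.702 ± 0.352 and 0.754 ± 0.606 CPM. Gper1, a membrane receptor, stood at 5.69 ± 2.42 and 3.96 ± 0.692 CPM. None of the 3 was called, at log2 differences of -0.10 ± 0.30, 0.09 ± 0.56 and -0.53 ± 0.26. Esrra and Esrrg, related orphan receptors, gave log2 differences of -0.13 ± 0.15 and 0.27 ± 0.26, and 0 of 9 members of the list were called in either direction by edgeR.

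In the list of the aryl hydrocarbon receptor, the sensor of dioxins, 2 of 8 genes rose, with a median of 0.01. Cyp1b1 (chromosome 17, 79706953 to 79715041), a monooxygenase induced by the receptor, read 33.9, 35.03, 32.1, 25.3 and 20.3 CPM in vehicle and 47.5, 48.9, 65.0, 60.3 and 49.1 CPM with 50 µM, a rise of 1.85-fold without overlap (edgeR adjusted p = 0.00264). Cyp1a1, the classical target, rose 2.07-fold from 3.83 ± 1.08 to 7.96 ± 2.44 CPM, and its call was lost without vehicle replicate 2, 4 or 5 or 50 µM replicate 3 or 4 (highest edgeR adjusted p 0.0701). Ahr itself was not called, at a log2 difference of -0.23 ± 0.16. Of 24 targets of NRF2, the factor of oxidative stress, 2 rose. Gsta4, a glutathione transferase named after its value was seen, rose 1.35-fold. Hmox1, which degrades heme, rose from 47.4 ± 6.90 to 62.3 ± 3.71 CPM and lost its call without vehicle replicate 4 or 5 or 50 µM replicate 3, 4 or 5 (highest edgeR adjusted p 0.0799), and Nqo1, a quinone reductase, was not called at a log2 difference of 0.30 ± 0.16.

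Of 15 transcripts of the mitochondrial genome in the list 2 rose and 2 fell, with a median of -0.16. Without the pair low in Y-linked transcripts 2 rose and 0 fell. The ribosomal RNAs mt-Rnr1 and mt-Rnr2 rose 1.83-fold and 1.37-fold (edgeR adjusted p = 0.000172 and 0.0123), while mt-Cytb and mt-Nd6, mRNAs of the respiratory chain, fell 1.38-fold and 1.43-fold (edgeR adjusted p = 0.00739 and 0.0152). mt-Rnr1 read 436, 412, 417, 443 and 420.4 CPM in vehicle and 789.6, 699, 642, 923 and 839 CPM with 50 µM. mt-Tp, a transfer RNA gene, rose 1.61-fold. Of 82 subunits of the respiratory chain encoded in the nucleus 2 fell, Ndufa9 and Ndufa4l2 (1.23-fold and 2.86-fold), a share near the 2.1% of all genes. Ndufa4l2 lost its call in 7 of 10 fits without 1 library, those without vehicle replicate 1, 3 or 4 or 50 µM replicate 1, 2, 3 or 5 (highest edgeR adjusted p 0.139). Neither was called without 50 µM replicate 2 or without the pair low in Y-linked transcripts. The libraries were made from RNA captured with poly-T beads, and the part of capture in these values was not tested. mt-Rnr2, mt-Cytb, mt-Nd6, Ndufa9 and Ndufa4l2 were chosen after their values were seen.

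Of 21 macrophage genes 4 fell and none rose, with a median of -0.41. The count was 2 without the pair low in Y-linked transcripts and 8 with DESeq2. The list took 0.0246% to 0.0304% of counts in vehicle and 0.0193% to 0.0209% with 50 µM, without overlap. Csf1r, the receptor that macrophages need to survive, read 23.9, 21.5, 23.5, 17.9 and 25.3 CPM in vehicle and 15.1, 14.6, 14.8, 11.6 and 10.6 CPM with 50 µM, a fall of 1.68-fold (edgeR adjusted p = 0.00459). In the endothelial list 1 of 20 was called: Aplnr, a receptor of veins and vessel sprouts, fell 2.11-fold (edgeR adjusted p = 0.00207), and it was named after its value was seen. Erythroid genes gave 0 calls in 12 with edgeR, with 12 differences positive, a median of 0.18 and shares of counts of 0.125% to 0.160% in vehicle and 0.138% to 0.171% with 50 µM. Epidermal genes gave 0 calls in 14, and Krt14, a keratin of the basal layer, spread over 15.2 to 440.2 CPM in vehicle and 81.4 to 201 CPM with 50 µM. With the epidermal score as a covariate, an alternative to the fit, edgeR called 757 genes, 27 of the sarcomere list among them. The part of sex composition, epidermis or cell numbers in the other differences was not tested.

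Of 35 genes of mitosis 6 fell and none rose, and all 35 log2 differences were negative, with a median of -0.26. Top2a, which untangles chromosomes, fell 1.22-fold from 207 ± 9.97 to 169.6 ± 9.27 CPM and lost its call without 50 µM replicate 2 (edgeR adjusted p = 0.0534). It was named after its value was seen. Mki67, a marker of dividing cells, stood at 180.3 ± 15.2 and 148 ± 14.7 CPM and was not called (edgeR adjusted p = 0.0619). Of 42 replication genes 1 fell, the cyclin gene Ccne1, 1.30-fold, and 0 did without the pair low in Y-linked transcripts. That share of 2.38% was near the 2.1% of all genes tested. Ccne1 lost its call in 7 of 10 fits without 1 library, those without vehicle replicate 2, 3, 4 or 5 or 50 µM replicate 2, 3 or 5 (highest edgeR adjusted p 0.126). In the list of p53 targets 3 of 26 rose and 1 fell, with a median of 0.09. Those higher were Trp53inp1, Sesn2 and Plk2, at 1.27-fold, 1.33-fold and 1.24-fold, named with Ccne1 after their values were seen. They lost their calls in 7, 8 and 6 of 10 fits (highest edgeR adjusted p 0.103, 0.118 and 0.0795). The count of 3 was 5 without vehicle replicate 1, 1 without 50 µM replicate 2 and 0 without vehicle replicate 3, 4 or 5 or 50 µM replicate 4 or 5, and 1 without the pair low in Y-linked transcripts. The member that fell was Cdkn1a, a cell-cycle inhibitor, which fell 1.28-fold and lost its call without vehicle replicate 5 or 50 µM replicate 2, 3, 4 or 5 (highest edgeR adjusted p 0.0744). The mitosis count was 3 without vehicle replicate 2 or 50 µM replicate 4 or 5 and 2 without vehicle replicate 3 or 50 µM replicate 2, and 0 without the pair low in Y-linked transcripts. Its highest value without 1 library was 9, and it was 11 with DESeq2, 11 with the epidermal covariate and 13 with all 45 libraries in 1 fit.

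**Figure D3:**
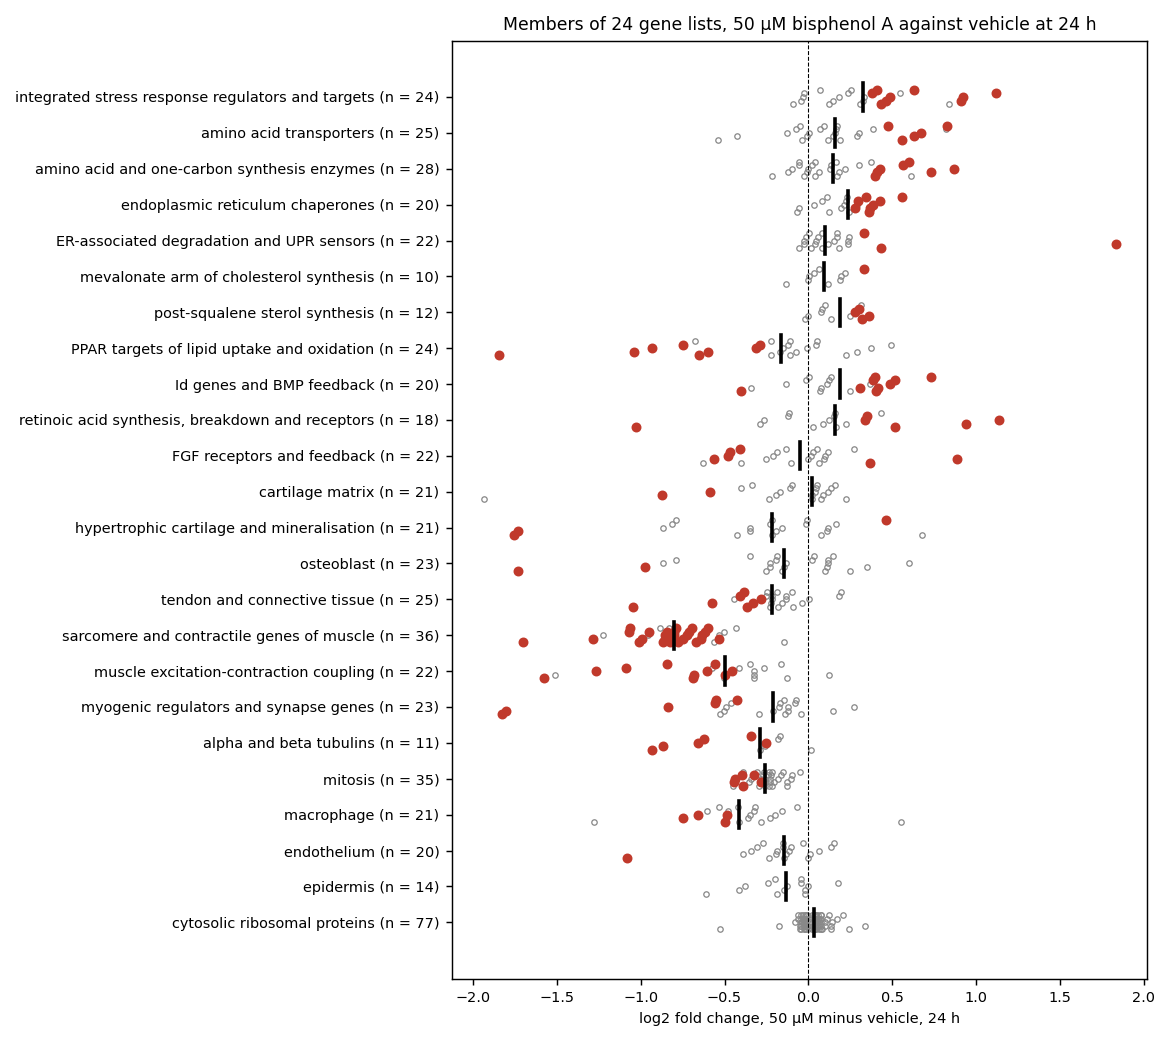
Log2 fold change of every tested member of 24 gene lists at 24 h, 50 µM minus vehicle; filled red points are genes called by edgeR, open grey points are not called, black bars are list medians, and the dashed line is 0. The sarcomere list lies wholly below 0 with a median of -0.80, the stress response list has a median of 0.33, and the cytosolic ribosomal proteins have a median of 0.03 and no call.

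The remaining genes of largest change were picked by the naming rule for their size of change and not through a list. That ranking holds only called protein-coding genes with a mean count of at least 50 and groups that do not overlap. A called gene outside these limits, such as Myf6, can have changed more. Among the 10 largest rises in that ranking were Sstr2, a somatostatin receptor, at 2.80-fold, and Cldn11, a claudin of tight junctions, at 2.08-fold. Esm1, a proteoglycan secreted by endothelium, was also among them at 2.04-fold. Ppp1r1b, a regulator of protein phosphatase, rose 2.03-fold, C5ar1, a complement receptor, 1.96-fold, and Gm4969 2.19-fold. Cldn11 read 12.3, 14.6, 11.5, 14.2 and 14.0 CPM in vehicle and 29.0, 25.2, 25.2, 27.4 and 31.5 CPM with 50 µM, and its p was the second smallest of all genes (edgeR adjusted p = 0.000172). Among the 10 largest falls in that ranking were Tceal7 at 2.72-fold, Tigd4 at 2.58-fold and Kcnj15, a potassium channel, at 2.57-fold. Traf3ip3 at 2.55-fold and Mmrn1, a multimerin of platelets and endothelium, at 2.52-fold also belonged to these falls. The libraries of the 2 groups did not overlap in any of these 11 genes, which the naming rule required.

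At 10 µM and 24 h, set against the same 5 vehicle libraries, edgeR called 0 of 17060 genes (0%), and 786 genes (4.61%) had an unadjusted p below 0.05. For Fgfr3 the log2 difference from vehicle was 0.38 ± 0.06 at 10 µM and 0.89 ± 0.07 at 50 µM. For Cpt1a the values were -0.75 ± 0.14 and -1.04 ± 0.13, and for Ihh 0.39 ± 0.11 and 0.46 ± 0.12. For Col10a1 they were 0.34 ± 0.30 and -1.76 ± 0.29, for Ibsp 0.22 ± 0.20 and -1.73 ± 0.21, and for Slc7a5 0.01 ± 0.08 and 0.67 ± 0.09. Both sets of differences share the vehicle libraries, and none of the values at 10 µM was called. The median over the sarcomere list was -0.24 at 10 µM, and that over the stress response list 0.11.

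Tested directly, 50 against 10 µM gave 126 of 16798 genes called (0.75%), 41 higher (0.244%) and 85 lower (0.506%) at 50 µM. Col10a1 and Ibsp were among the 5 lower genes of smallest p, at 2.08 ± 0.23 and 1.94 ± 0.20 below 10 µM on the log2 scale (edgeR adjusted p = 0.000732 and 0.000354). Ibsp stood at 214 ± 54.5 CPM at 10 µM and Col10a1 at 65.3 ± 23.4 CPM. Tubb6, Tnnt3 and Mylpf completed these 5, and in the sarcomere list 17 of 36 were lower at 50 than at 10 µM. Sp7, which was not called against vehicle, was lower at 50 than at 10 µM (log2 -0.43 ± 0.08, edgeR adjusted p = 0.0205). It stood at 25.9 ± 3.04 CPM in vehicle, 31.5 ± 1.97 CPM at 10 µM and 23.3 ± 1.99 CPM at 50 µM. Its log2 difference from vehicle was 0.29 ± 0.09 at 10 µM, not called, and -0.16 ± 0.10 at 50 µM. The 5 higher genes of smallest p were mt-Rnr1, Arrdc3, an arrestin-like adaptor, mt-Tp, Fgfr3 and Hmox1. Arrdc3 stood at 136 ± 8.66 CPM at 10 µM and read 174, 206, 213, 213 and 192 CPM at 50 µM. Slc7a5 was higher at 50 than at 10 µM as well (edgeR adjusted p = 0.00249). Cpt1a and Ihh did not pass this test (edgeR adjusted p = 0.275 and 0.892). The higher count was 27 and 21 without 10 µM replicates 2 and 3, and 20, 22 and 23 without 50 µM replicates 2, 4 and 5. The lower count was 48 and 41 without 10 µM replicates 2 and 3, and 52 and 49 without 50 µM replicates 2 and 5.

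**Figure D4:**
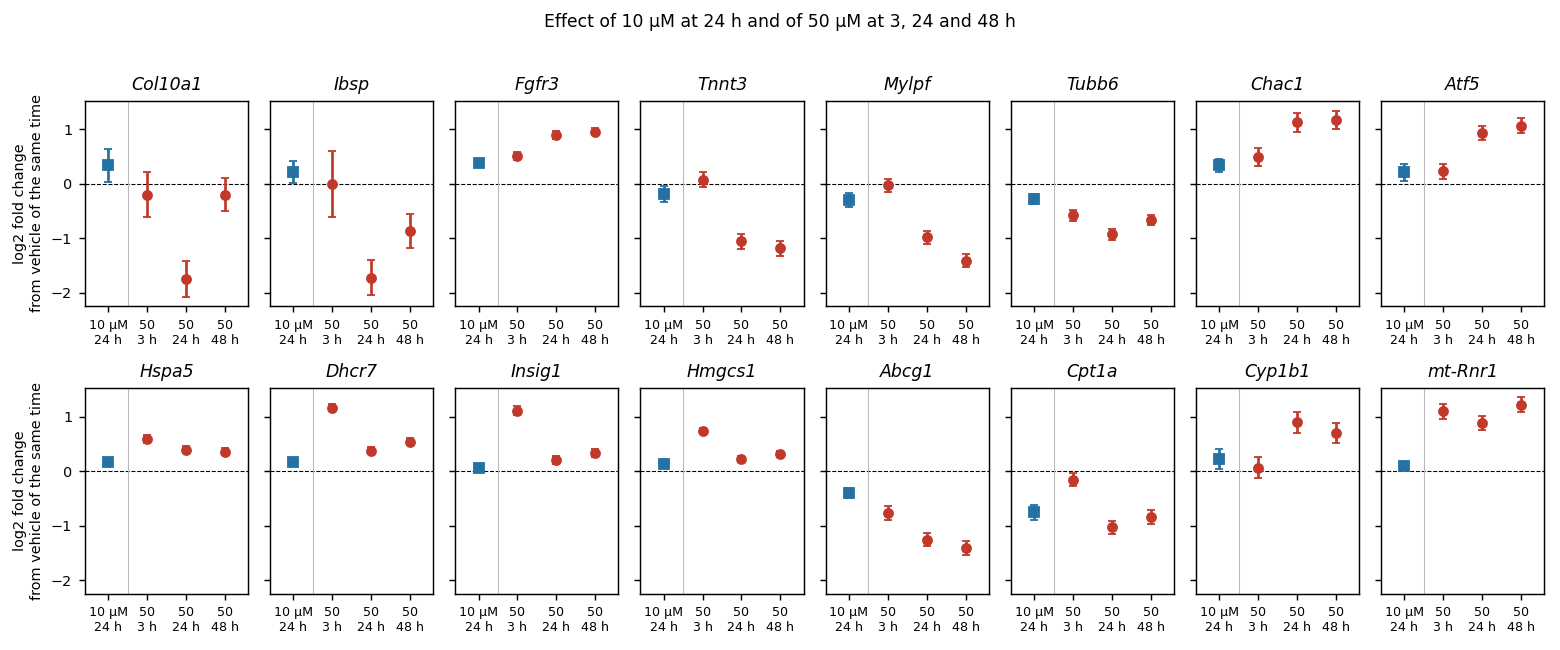
Log2 fold change from vehicle of the same time for 16 named genes; blue squares are 10 µM at 24 h, red circles are 50 µM at 3, 24 and 48 h, error bars are the SE, and the dashed line is 0. Tnnt3 and Mylpf lie near 0 at 3 h and below it at 24 and 48 h, Dhcr7, Insig1 and Hmgcs1 are highest at 3 h, and Col10a1 and Ibsp lie furthest below 0 at 24 h.

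A fit of the 30 vehicle and 50 µM libraries of all times tested whether the effect at 24 h differed from that at 3 h. It called 133 of 18642 genes (0.713%), 26 with a more positive effect at 24 h (0.139%) and 107 with a more negative one (0.574%). For Dhcr7 the effect was 1.16 ± 0.07 at 3 h and 0.37 ± 0.07 at 24 h, and for Insig1 1.11 ± 0.08 and 0.20 ± 0.08 (edgeR adjusted p of the difference 7.9e-06 and 7.9e-06). Across the sterol lists the effect was lower at 24 h in 5 of 10 mevalonate genes and 8 of 12 post-squalene genes. In the sarcomere list the median effect was 0.05 at 3 h and -0.79 at 24 h, and 16 of 36 members were lower by the test of the difference. Tnnt3 gave 0.08 ± 0.14 at 3 h and -1.06 ± 0.14 at 24 h (edgeR adjusted p of the difference 0.00176). Fgfr2 had the more positive effect at 24 h, with -0.09 ± 0.05 at 3 h and 0.38 ± 0.05 at 24 h (edgeR adjusted p of the difference 0.000611). The negative count was 71, 71 and 69 without vehicle replicates 4 and 5 and 50 µM replicate 5 of 24 h. The positive count was 13, 14 and 12 without vehicle replicates 1, 3 and 4 of 3 h, and 14, 15, 13 and 13 without 50 µM replicates 1, 2, 4 and 5 of 3 h. It was 41, 11, 12 and 13 without vehicle replicates 2 to 5 of 24 h, and 17, 14, 17 and 8 without 50 µM replicates 2 to 5 of 24 h.

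In the stress response, amino acid transporter and chaperone lists 0 of 24, 0 of 25 and 0 of 20 members differed in effect between 3 and 24 h by edgeR, and Hspa5 gave 0.59 ± 0.07 and 0.39 ± 0.07. For Col10a1 and Ibsp the differences of -1.55 ± 0.53 and -1.72 ± 0.69 did not pass (edgeR adjusted p = 0.206 and 0.338). With 1 scaling of all 45 libraries, mean Ibsp in vehicle was 1.74, 184 and 646 CPM at 3, 24 and 48 h. With 50 µM it was 1.78, 55.4 and 354 CPM. Col10a1 stood at 5.19, 51.8 and 165 CPM in vehicle and at 4.57, 15.3 and 143 CPM with 50 µM. Both genes were thus low at 3 h and higher at each later time in both groups. Mylpf stood at 103, 325 and 440 CPM in vehicle and at 101, 164 and 164 CPM with 50 µM. Between 24 and 48 h no gene passed (0 of 18642 by edgeR and by DESeq2, 0%, with 620 genes, 3.33%, at an unadjusted p below 0.05). At 48 h the effects in the same fit were -1.42 ± 0.12 for Mylpf, 1.17 ± 0.16 for Chac1 and 0.96 ± 0.07 for Fgfr3. For Col10a1 and Ibsp they were -0.20 ± 0.30 and -0.86 ± 0.31. The sarcomere median was -1.19 at 48 h and that of the stress response list 0.41.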

How the data were processed

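Poly-A RNA of mouse forelimb cultures was sequenced. Raw counts per gene were deposited by the authors, made from reads with CASAVA 1.8, STAR 2.5 and HTSeq 0.6.1 on mm10, per the submitters' processing notes. Whether counting used strand is not stated, so reads of overlapping and antisense genes cannot be separated. The authors' deposited FPKM values (per the file headers) were not tested, and the log2 fold changes and p-values of the authors' deposited table served only for the count of their calls. Count columns of 6 tables were joined, with 9859 genes set to 0 in a table that lacked them, and libraries held in 2 tables were equal in all 442570 values compared.

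Counts of the 10 libraries were fitted with edgeR 4.0.16 (R 4.3.3): TMM scaling, filterByExpr at a count of 10 and a total of 15, the quasi-likelihood test and Benjamini-Hochberg adjustment at 0.05. The SE of a log2 fold change is its size divided by the square root of F. CPM uses TMM library sizes. The fit between doses held the 24 h libraries of 10 and 50 µM, and the fits between times held 30 libraries. DESeq2 1.42.0, other scalings and filters, a fit of all 45 libraries, a replicate block, an epidermal covariate and leaving out libraries were the alternatives. On data simulated for the main comparison, with 16841 genes, 48% of 1.5-fold and 82% of 2-fold changes were recovered.

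Named genes are up to 10 of largest rise and fall with a mean count of at least 50 and separate groups, up to 5 of smallest p in lists with at least 3 and 20% of members called, up to 5 of smallest p per direction between doses and times, and a set of marker genes whatever their values. A further 25 were chosen after their values were seen. A few genes are not reported here. The members and the 57 lists were chosen with earlier results of these data known.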

Additional observations from a re-analysis of the deposited data

Results flagged for a closer look

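Of 288 sets of 5 library values examined, 22 held a library farther from its group than Dixon's 95% criterion allows, where chance gives about 1 in 20. In the vehicle group these were, in CPM, Ifitm5 in replicate 1 at 8.94, Acan in replicate 2 at 532, Pthlh in replicate 1 at 11.5, Mmp13 in replicate 1 at 1.83, Atf5 in replicate 1 at 86.3, Trib3 in replicate 1 at 13.4, Slc7a3 in replicate 3 at 6.67, Hmgcs1 in replicate 1 at 228, Cpt1a in replicate 2 at 108, Cyp26a1 in replicate 1 at 2.85, mt-Rnr2 in replicate 2 at 597, Arrdc3 in replicate 2 at 148 and Osr2 in replicate 1 at 53.002. In the 50 µM group they were Pth1r in replicate 1 at 172, Mylpf in replicate 4 at 187, Myf6 in replicate 3 at 0.708, Cyp26a1 in replicate 4 at 4.92, Cdkn1a in replicate 1 at 98.2, Kcnj15 in replicate 3 at 4.58 and Trp53inp1 in replicate 1 at 87.3. The sums of 2 lists were picked out the same way: the osteoclast share of counts in 50 µM replicate 2, 0.00820%, and the cartilage matrix share in vehicle replicate 2, 1.58%. These are values of single libraries, and their causes were not tested.

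In 24 of the 131 named genes the effect of 50 µM at 24 h differed from that at 3 h. This is by edgeR's test of the difference itself (adjusted p below 0.05), which called 0.713% of all genes. Dhcr7, Insig1 and Fgfr2 were named partly for their small p in this same test. Many others were named for their values in the same 24 h libraries, so the count is not an independent result. The difference is the log2 effect at 24 h minus that at 3 h. It was positive for Fgfr2 (0.47). Muscle genes were among the negative differences: Mylpf (-0.96), Tnnt3 (-1.13), Tnnc1 (-0.83), Tnni2 (-0.90), Casq1 (-1.46) and Rapsn (-0.76). So were sterol genes: Hmgcs1 (-0.51), Cyp51 (-0.72), Dhcr7 (-0.79), Sqle (-0.55) and Insig1 (-0.91). The others were Etv5 (-0.48), Tceal7 (-1.24), Fmod (-0.53), Vim (-0.50), Acta2 (-1.13), Cpt1a (-0.88), Aldh1a3 (-0.65), Aplnr (-1.07), Traf3ip3 (-1.23), Mmrn1 (-1.30), Kcnj15 (-1.35) and Ccne1 (-0.54).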

How the results depend on the processing

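Against 231 higher and 354 lower genes at 24 h, DESeq2 gave 407 and 587, all 45 libraries in 1 fit 350 and 535, and leaving out the treated libraries low in Y-linked transcripts (chosen after seeing the data) 105 and 139. Other scalings, filters and the epidermal covariate kept both counts within 1.5 times. Leaving out 1 library gave 116 to 263 higher and 210 to 396 lower. Between 50 and 10 µM (41 higher, 85 lower) DESeq2 gave 108 and 230, no filter 62 and 159, and leaving out 1 library 20 to 60 and 41 to 112. For the difference between 24 and 3 h (26 and 107) DESeq2 gave 64 and 202, and leaving out 1 library 8 to 41 and 69 to 151; between 48 and 24 h that gave 0 to 1 lower, with the 1 arising without 50 µM replicate 2 of 48 h. The cause of these shifts was not tested.

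Replicate numbers are shared by the groups, but same-numbered libraries correlated in their deviations at 0.319, 0.0356, 0.161, 0.155 and 0.189, and since the second lay below 0.1, the minimum set for every pair, the numbers were not taken to pair them, although 4 of 5 treated libraries correlated best with their own number. That minimum does not show the libraries to be unpaired. With the replicate block the counts were 479 and 701 at 24 h, 167 and 286 between doses, and 40 and 164 between 24 and 3 h. With it 17 mitosis, 8 bone, 8 macrophage and 6 hypertrophic cartilage genes were lower at 24 h, and Sox9 and Sox6 were higher.

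No called gene named here changed direction under any alternative. Among genes not called, the log2 difference changed sign for Esr2 (-0.11 with the block, -0.23 without the pair low in Y-linked transcripts), Krt14 (0.86 with the block, 0.34 with the epidermal covariate), Myod1 (0.059 with that covariate, 0.080 without the pair) and Esr1 (0.043 without the pair). Leaving out 1 library gave -0.16 to 0.029 for Myod1, -0.19 to 0.039 for Esr1, -0.39 to 0.35 for Esr2, -0.22 to 0.0012 for Esrra and -0.34 to 0.96 for Krt14. With 5 libraries a group, the simulation recovered 48% of 1.5-fold and 82% of 2-fold changes. A gene not called may therefore still have changed by that much.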
